A study of Drosophila melanogaster with 10 samples.

Results

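The genes described here encode subunits of the proteasome, the protease that degrades proteins tagged with ubiquitin. Its barrel-shaped core particle has outer rings of alpha subunits, which gate entry to the chamber, and inner rings of beta subunits, some of which cut peptide bonds. A regulatory particle caps the core: its base holds a ring of ATPases that unfold substrates and the subunits that bind ubiquitin, and its lid removes the ubiquitin chain. In mushroom body neurons of the fly, a paired brain centre for olfactory learning, the ubiquitin and proteasome system is known to be needed for the pruning of larval axons at the onset of metamorphosis. Members were the genes with a probe set carrying only 1 gene symbol, where that symbol was Prosalpha1 to Prosalpha7, Prosbeta1 to Prosbeta7, Rpn1 to Rpn13 or Rpt1 to Rpt6. The rule found 28 probe sets, belonging to 26 of the 10844 genes named on the array. Prosalpha7 and Prosbeta6 had 2 probe sets each, and the one with the higher mean stood for the gene. The members were 6 alpha subunits (Prosalpha2 to Prosalpha7), 6 beta subunits (Prosbeta2 to Prosbeta7), 7 lid subunits (Rpn3, Rpn5, Rpn6, Rpn7, Rpn8, Rpn11 and Rpn12) and 7 base subunits (Rpt2, Rpt3, Rpt4, Rpt5, Rpn1, Rpn2 and Rpn13). Another 6 subunit genes were not matched by the rule and were not analysed here: Prosalpha1, Prosbeta1, Rpn9, Rpn10, Rpt1 and Rpt6.

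RNA came from laser-captured mushroom body neurons of Drosophila melanogaster, with about 100 cell bodies per capture and 40 captures pooled for each sample, and was amplified in 2 rounds before hybridisation to 1 Affymetrix Drosophila Genome array. All animals, at both ages, carried UAS-EcRB1[W650A], a dominant negative ecdysone receptor, and UAS-mCD8::GFP, a membrane-bound green fluorescent protein, each driven by 1 copy of OK107-GAL4 (OK107-GAL4/+) in a yw/w background. Pupae were staged in hours after puparium formation, with 3 arrays from 5 h and 6 from 0 h. An additional array is titled as 5 h while its age label and description give 0 h, and it entered no comparison. The y,w animals to which the series design compares these arrays were not used here, and every difference is one of age under the dominant negative receptor. The labels call the samples biological replicates without naming the animals pooled, so p-values measure the spread between these samples. Values are log2 signals after RMA, and a difference is the mean at 5 h minus the mean at 0 h. In pooled tissue, fewer cells that express a gene and less RNA per cell cannot be told apart.

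The arrays at 0 h fell into separate sets, which bears on every result below. The 5 h arrays correlated over all probe sets at 0.978 to 0.986 with 0 h replicates 1 to 3 but at 0.949 to 0.973 with 0 h replicates 4 to 6. The SD of log2 signals over all probe sets was 1.66 to 1.73 in the 5 h arrays and 1.66 to 1.74 in 0 h replicates 1 to 3, against 1.47 to 1.58 in 0 h replicates 4 to 6. Narrower arrays read bright probe sets lower and dim ones higher. All 26 members were bright, with means over 9 arrays from 6.53 to 10.5, above the 3.73 reached by control probe sets for foreign sequences. Probe sets differ in response, so levels were not ranked between subunits. Members were therefore read beside 1903 probe sets at least as bright as the dimmest member, as well as beside all 13966. Control probes near the 3′ end of actin exceeded those near the 5′ end by 8.47 to 8.63 at 5 h, against 7.45 to 8.10 at 0 h, a measure of amplification or RNA quality that moved with age. Of 9 mushroom body neuron markers, all were above background and 2 rose with age: toy, an eye-field transcription factor (1.06, adjusted p = 0.038 in limma), and 14-3-3zeta, a signalling adaptor (0.66, adjusted p = 0.025). Of the 9, 6 read higher at 5 h and 3 lower: ey (-0.10), Dop1R1 (-0.25) and prt (-0.16). The mushroom body marker signal, summed on the linear scale, was 5306 to 5468 at 5 h. It was 3593 to 3901 in 0 h replicates 1 to 3 and 3916 to 4948 in replicates 4 to 6. That sum is weighted to the brightest genes, 14-3-3zeta and rut, with means of 10.97 and 10.53 at 5 h. Of 7 glial markers, all had means over the 9 arrays above background, 5 read higher at 5 h and 2 lower. The 3 that passed all rose (bdl, wun2 and nrv2). Those that read lower were Gs2 (-0.37, adjusted p = 0.23 in limma) and moody (-0.11, adjusted p = 0.71). At 5 h Gs2 read 3.63, 3.37 and 3.58, below background. The summed glial signal was 556 to 697 at 5 h, against 290 to 383 in 0 h replicates 1 to 3 and 188 to 213 in replicates 4 to 6. Of 6 pan-neuronal markers 1 rose past the threshold (elav), 5 read higher and 1 lower (onecut, -0.21). Of 3 muscle markers 1 rose past the threshold (bt), and the other 2 read lower (Mlc2, -0.25, and up, -0.13). None of 6 markers of dividing cells, 4 of fat body, 5 of salivary gland or 4 of hemocytes passed in limma against all arrays at 0 h, and 2 of these had an unadjusted p under 0.05, both higher. The summed fat body signal was 821 to 1595 at 5 h, against 1008 to 2573 and 480 to 1091 in the 0 h sets, and the salivary gland signal was 79.7 to 89.4, against 89.3 to 1280.2 and 88.6 to 106. With 3′ bias as a covariate, limma called 0 of the 13966 probe sets in either direction against all 6 arrays at 0 h. The ages did not overlap in 3′ bias, so this fit cannot tell the part of bias from that of age. The part of other cells in the proteasome values was not tested.

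Against all 6 arrays at 0 h, 2 of the 26 subunit genes passed the test and both fell: Rpn12 in the lid and Rpn1 in the base. No subunit gene rose past the threshold of adjusted p 0.05 in limma. At an unadjusted p under 0.05, 5 read lower and 3 higher. The exact permutation test, whose smallest p over 84 splits of the arrays is 0.012, called 0 of the 13966 probe sets after adjustment. Its 0 calls among members therefore say nothing particular to them. The limma calls lower made up 7.69% of the members, where 0.236% of all probe sets and 0.736% of the equally bright ones were called lower. Calls higher, of which the members had 0, made up 1.01% of all probe sets and 2.63% of bright ones. The family did not shift one way: 13 members read lower and 13 higher, with a median difference of 0.02, beside -0.07 over all probe sets and 0.18 over bright ones. After the quantile normalization was repeated over the 9 arrays, that median was -0.15. The medians were 0.14 for the core, -0.05 for the lid and -0.16 for the base, and after repeated normalization -0.05 for the core, -0.24 for the lid and -0.34 for the base.

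Rpn12, a lid scaffold subunit that completes lid assembly in yeast, had the largest fall of the 26. Its probe set, 144246_at, read 7.75, 7.70 and 7.80 at 5 h, against 8.77, 8.99 and 8.55 in 0 h replicates 1 to 3 and 8.22, 8.40 and 8.32 in replicates 4 to 6. All 5 h arrays lay below all 6 arrays at 0 h, and the 5 h arrays spread little. The mean was 7.75 ± 0.05 at 5 h (SD, n = 3) and 8.54 ± 0.29 at 0 h (n = 6), a fall of 1.73-fold with a log2 difference of -0.79 (SE 0.16, adjusted p = 0.041 in limma). The fall was 2.03-fold against replicates 1 to 3 (adjusted p = 0.00099 in limma) and 1.48-fold against replicates 4 to 6 (adjusted p = 0.0082 in limma), where repeated quantile normalization gave 1.94-fold.

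Rpn1, the large base scaffold that binds ubiquitin and the shuttle factors carrying it, was the other called gene. Its probe set, 154052_at, read 7.40, 7.28 and 7.49 at 5 h, against 8.10, 7.88 and 7.92 in 0 h replicates 1 to 3 and 7.72, 7.98 and 8.03 in replicates 4 to 6. Again no array at 5 h reached any array at 0 h. The 0 h means were 7.91 for replicates 4 to 6 and 7.97 for replicates 1 to 3 in the deposited values. The mean was 7.39 ± 0.11 at 5 h (SD, n = 3) and 7.94 ± 0.13 at 0 h (n = 6), a fall of 1.46-fold with a log2 difference of -0.55 (SE 0.11, adjusted p = 0.039 in limma). Against replicates 1 to 3 the difference was -0.58 and against replicates 4 to 6 it was -0.52 (adjusted p = 0.0062 and 0.019 in limma); after repeated quantile normalization these were -0.58 and -0.92. Both genes kept their direction in 20 of 20 alternatives, though some of these, such as the threshold of 0.01, cannot change the difference. The comparison with all arrays at 0 h left them near the threshold. Without 5 h replicate 1, 2 or 3 their adjusted p was 0.13 to 0.22 for Rpn12 and 0.12 to 0.21 for Rpn1, and both also missed the threshold without 0 h replicate 2, 3 or 5, as did Rpn1 without 0 h replicate 6.

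**Figure D1:**
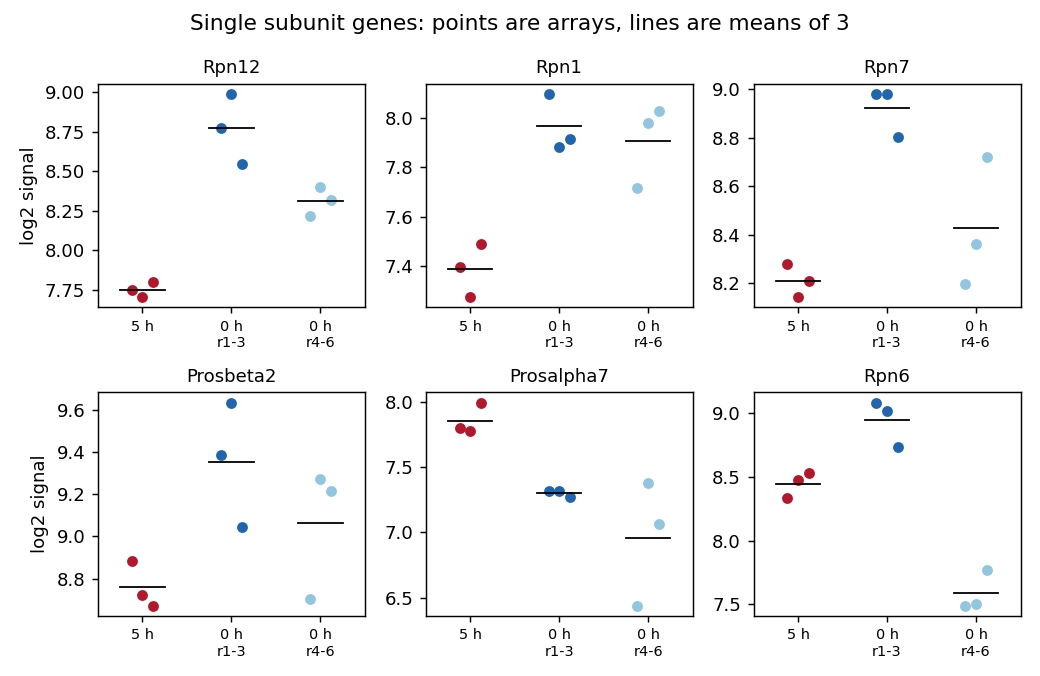
Log2 signal of 6 subunit genes in each array, at 5 h, in 0 h replicates 1 to 3 and in 0 h replicates 4 to 6 (r1-3 and r4-6), with a line at the mean of each set of 3. Rpn12 and Rpn1 lie below every 0 h array at 5 h, Prosalpha7 lies above every one, and Rpn6 at 5 h lies between the sets of 0 h arrays; axes differ between panels and do not start at 0.

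Few members had ages that separated without overlap in either direction, while separation upward was common among bright probe sets. The 2 called genes lay wholly below the 0 h arrays, 7.69% of members against 4.4% of all probe sets and 3.78% of bright ones. Another 2, Prosalpha4 and Prosalpha7, lay wholly above them, again 7.69%, against 5.39% of all probe sets and 15.7% of bright ones. Both are alpha subunits of the core.

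Prosalpha7 was the core subunit with the largest rise. Its brighter probe set, 142853_at, read 7.80, 7.78 and 7.99 at 5 h, against 7.32, 7.32 and 7.27 in 0 h replicates 1 to 3 and 6.44, 7.38 and 7.07 in replicates 4 to 6. The mean was 7.86 ± 0.12 at 5 h (SD, n = 3) and 7.13 ± 0.36 at 0 h (n = 6), 1.65-fold higher (adjusted p = 0.093 in limma against all 6, 0.0054 against replicates 1 to 3 and 0.015 against replicates 4 to 6). Against all 6 it passed in 4 of 20 alternatives, among them without 0 h replicate 4 (adjusted p = 0.029, over a range of 0.0024 to 0.9997). Against replicates 4 to 6 it missed the threshold after repeated quantile normalization (0.53, adjusted p = 0.073), without 5 h replicate 3 (0.070) and with its probe sets averaged (0.19). Its other probe set was dim, at 4.16 at 5 h and 4.29 at 0 h, and did not show the rise, with a difference of -0.13. Prosalpha4, singled out after its values were seen, read 8.21, 8.24 and 8.33 at 5 h, against 7.86, 8.08 and 7.46 in 0 h replicates 1 to 3 and 6.89, 7.85 and 7.75 in replicates 4 to 6. Its difference was 0.61 against all 6 (adjusted p = 0.22 in limma), 0.46 against replicates 1 to 3 (0.087) and 0.76 against replicates 4 to 6 (0.036); after repeated quantile normalization the second passed (0.049) and the third did not (0.15).

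**Figure D2:**
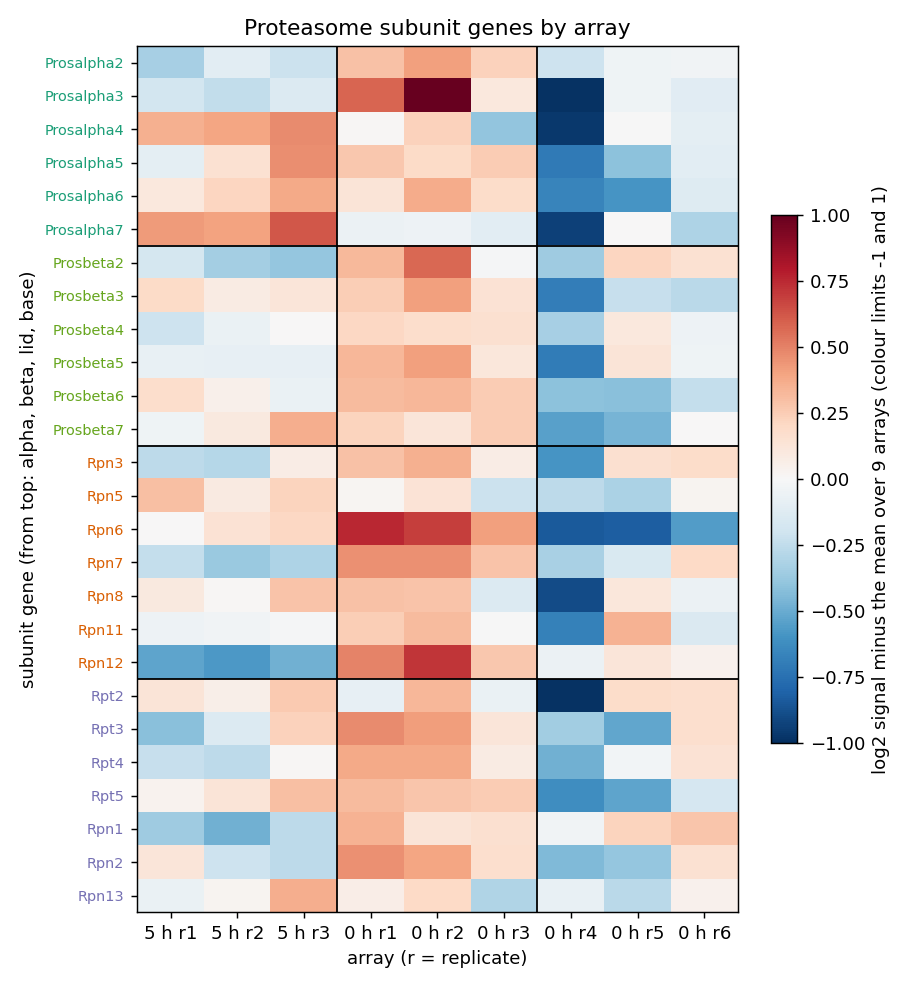
Log2 signal of the 26 subunit genes (rows, ordered alpha, beta, lid, base) in the 9 arrays (columns, 5 h first), as the difference from each gene's mean over the arrays, red above and blue below that mean. Colours stop at 1 and -1. The column of 0 h replicate 4 is blue for most genes, and Rpn12 and Rpn1 are blue in all 5 h columns.

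The 3 measured catalytic subunits lay at 5 h below 0 h replicates 1 to 3, as did other members, so this was not particular to them. The share of all probe sets that lay wholly lower in this comparison was not counted, so the separation has no baseline. Falls called in limma against this set made up 34.6% of members, 3.74% of all probe sets and 12.7% of bright ones. None of the 3 passed against all 6 arrays at 0 h in the deposited values. Prosbeta2, the trypsin-like site of the inner ring and the core subunit with the largest fall, read 8.89, 8.72 and 8.67 at 5 h, against 9.38, 9.63 and 9.04 in 0 h replicates 1 to 3 and 8.70, 9.27 and 9.21 in replicates 4 to 6. Its 5 h arrays lay below every 0 h array but replicate 4, and its difference of -0.45 did not pass against all 6 (adjusted p = 0.26 in limma). It fell 1.51-fold against replicates 1 to 3 (adjusted p = 0.030 in limma) and read -0.30 against replicates 4 to 6 (adjusted p = 0.19), which became -0.66 (adjusted p = 0.0096) after repeated quantile normalization. Prosbeta5, the chymotrypsin-like site, read 10.38, 10.37 and 10.37 at 5 h, against 10.79, 10.86 and 10.57 in 0 h replicates 1 to 3 and 9.75, 10.58 and 10.41 in replicates 4 to 6. Its 5 h arrays were nearly equal and lay inside the range of 0 h, with a difference of -0.12 (adjusted p = 0.76 in limma), and it passed only against replicates 1 to 3 (-0.37, adjusted p = 0.048). Rpn11, the lid metalloprotease that cuts ubiquitin chains from substrates, read 8.32, 8.34 and 8.37 at 5 h, against 8.62, 8.69 and 8.37 in 0 h replicates 1 to 3 and 7.70, 8.72 and 8.23 in replicates 4 to 6. Its highest value at 5 h, 8.366, was barely below the lowest of replicates 1 to 3, 8.3697. Its difference was -0.05 against all 6 (adjusted p = 0.91 in limma), -0.22 against replicates 1 to 3 and 0.12 against replicates 4 to 6, none past the threshold.

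Among ubiquitin receptors, Rpn13 did not follow Rpn1. Rpn13, which binds ubiquitin and recruits a deubiquitinase to the base, read 6.77, 6.86 and 7.19 at 5 h, against 6.89, 7.03 and 6.53 in 0 h replicates 1 to 3 and 6.76, 6.56 and 6.87 in replicates 4 to 6. The ages overlapped, and the difference of 0.17 did not pass (adjusted p = 0.57 in limma). The remaining extremes by subcomplex were Rpn5, a lid scaffold subunit, and Rpt5, an ATPase of the base. Rpn5 had the largest rise in the lid, with 8.08, 7.87 and 8.01 at 5 h, against 7.81, 7.92 and 7.57 in 0 h replicates 1 to 3 and 7.52, 7.47 and 7.82 in replicates 4 to 6, overlapping the first set (0.31, adjusted p = 0.29 in limma). Rpt5 had the largest rise in the base, with 9.65, 9.74 and 9.91 at 5 h, against 9.93, 9.89 and 9.87 in 0 h replicates 1 to 3 and 8.99, 9.09 and 9.44 in replicates 4 to 6. It stood at the level of replicates 1 to 3 and above all of replicates 4 to 6, and passed only against the second set (0.59, adjusted p = 0.019 in limma).

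The count of subunits that changed depended on which 0 h arrays the 5 h arrays were set against. Both comparisons share the 5 h arrays, so their values are given side by side. Against 0 h replicates 1 to 3, 9 subunit genes fell and 1 rose. The fallen were Prosalpha2, Prosalpha3, Prosbeta2 and Prosbeta5 in the core, Rpn6, Rpn7 and Rpn12 in the lid, and Rpt4 and Rpn1 in the base, and the one that rose was Prosalpha7. Falls made up 34.6% of members, against 3.74% of all probe sets and 12.7% of bright ones. Rises made up 3.85%, against 4.37% of all probe sets and 13.6% of bright ones. The median member difference was -0.26, beside -0.00 over all probe sets and 0.01 over bright ones. By subcomplex the medians were -0.19 in the core, -0.40 in the lid and -0.44 in the base. Without 5 h replicate 2, 0 h replicate 1 or 0 h replicate 2 the count of falls was 4, and over all probe sets 297, 326 and 347.

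Against 0 h replicates 4 to 6, 8 subunit genes rose and 2 fell. Those that rose were Prosalpha4, Prosalpha5, Prosalpha6, Prosalpha7, Prosbeta3 and Prosbeta6 in the core, Rpn6 in the lid and Rpt5 in the base, and those that fell were Rpn12 and Rpn1. Rises made up 30.8% of members, against 12.5% of all probe sets but 37.9% of bright ones, so their share was near that of equally bright probe sets. Falls made up 7.69%, against 9.5% of all probe sets and 3.73% of bright ones. The median member difference was 0.20, beside -0.12 over all probe sets and 0.34 over bright ones, and it turned to -0.11 after repeated quantile normalization. The core median was 0.44, the lid 0.12 and the base 0.13. The count of rises was 5 without 5 h replicate 1 or 0 h replicate 5, 2 without 5 h replicate 2 and 1 without 5 h replicate 3, and the count of falls was 1, 0 and 1 without 5 h replicates 1, 2 and 3. Over all probe sets, rises were 1468, 1068 and 901 without 5 h replicates 1, 2 and 3, and falls 658, 227 and 142. Without 0 h replicate 4 the median over members was 0.03.

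**Figure D3:**
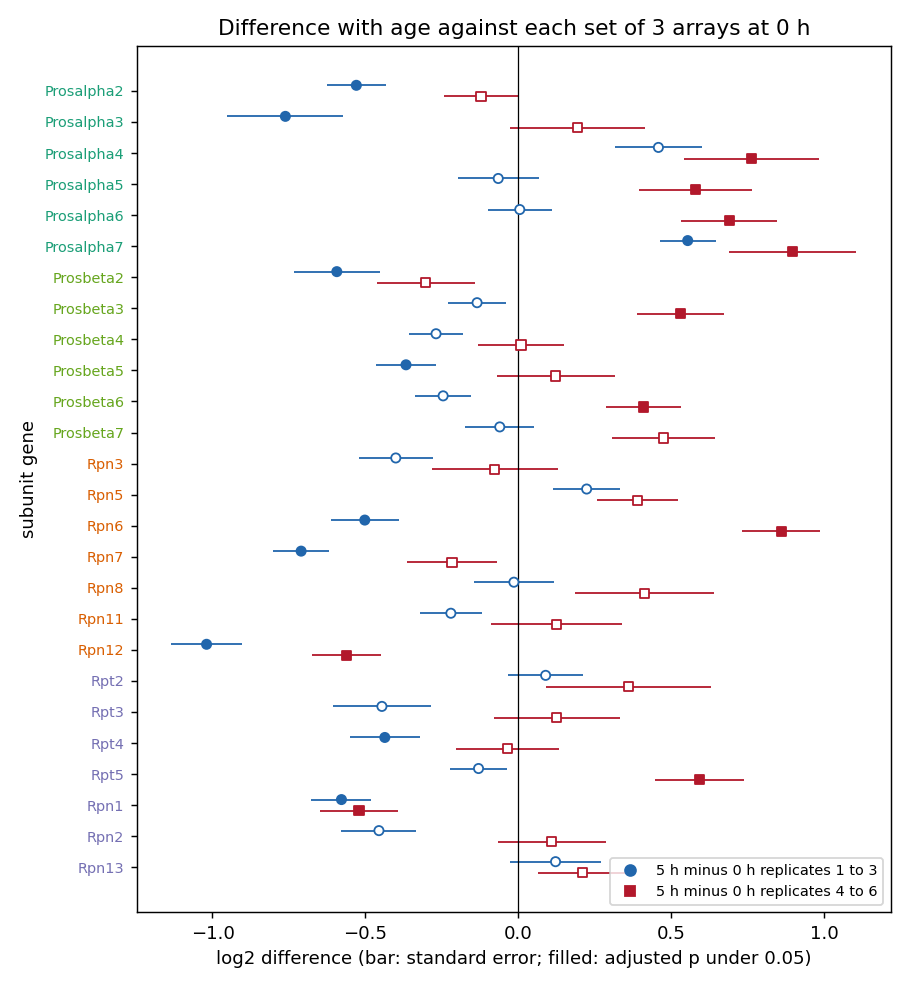
Log2 difference of each subunit gene, 5 h minus 0 h replicates 1 to 3 (blue circles) and 5 h minus 0 h replicates 4 to 6 (red squares), with standard errors; filled symbols passed the adjusted threshold in limma. Rpn12 and Rpn1 are filled left of 0 in both, Prosalpha7 is filled right of 0 in both, a call against replicates 4 to 6 that repeated quantile normalization ends, and Rpn6 is filled on opposite sides.

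Rpn6, a lid scaffold subunit that also touches the core, passed in opposite directions and was singled out after its values were seen. Its probe set, 142186_at, read 8.33, 8.47 and 8.53 at 5 h, against 9.08, 9.02 and 8.74 in 0 h replicates 1 to 3 and 7.49, 7.50 and 7.77 in replicates 4 to 6. The 5 h arrays lay below the first set and above the second. The difference was -0.50 against replicates 1 to 3 (adjusted p = 0.022 in limma) and 0.86 against replicates 4 to 6 (adjusted p = 0.0018 in limma), and both calls held after repeated quantile normalization (-0.50 and 0.47). Rpn7, another lid scaffold subunit named after its values were seen, read 8.28, 8.14 and 8.21 at 5 h, against 8.98, 8.98 and 8.80 in 0 h replicates 1 to 3 and 8.20, 8.36 and 8.72 in replicates 4 to 6. It fell 1.64-fold against replicates 1 to 3 (adjusted p = 0.0019 in limma) and overlapped replicates 4 to 6 (-0.22, adjusted p = 0.29), where repeated quantile normalization gave -0.61 (adjusted p = 0.010).

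The remaining members moved less or with a single set. In the outer ring, Prosalpha2 differed by -0.53 against replicates 1 to 3 and -0.12 against replicates 4 to 6, and Prosalpha3 by -0.76 and 0.19. Prosalpha5 differed by -0.07 and 0.58, and Prosalpha6 by 0.00 and 0.69. In the inner ring, where Prosbeta3, Prosbeta4, Prosbeta6 and Prosbeta7 are structural subunits, these differences were -0.13 and 0.53 for Prosbeta3, -0.27 and 0.01 for Prosbeta4, -0.25 and 0.41 for Prosbeta6, and -0.06 and 0.47 for Prosbeta7. In the lid, the scaffold subunit Rpn3 differed by -0.40 and -0.08, and Rpn8, the inactive partner of Rpn11, by -0.01 and 0.41. Among the ATPases, Rpt2 differed by 0.09 and 0.36, Rpt3 by -0.45 and 0.13, and Rpt4 by -0.44 and -0.03. Rpn2, the second large scaffold of the base, differed by -0.46 and 0.11. Of these 14 genes, 3 passed against replicates 1 to 3 (Prosalpha2, Prosalpha3 and Rpt4) and 4 against replicates 4 to 6 (Prosalpha5, Prosalpha6, Prosbeta3 and Prosbeta6).

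Within 0 h itself, all 26 members read lower in replicates 4 to 6 than in replicates 1 to 3, with a median difference of -0.44. Bright probe sets shared much of this, with a median of -0.34, while the median over all probe sets was 0.11. In 13 of the 26 members the arrays of replicates 4 to 6 lay wholly below those of replicates 1 to 3, as did 46.0% of bright and 16.3% of all probe sets. Rpn6 differed most, at -1.36, and Rpn1 least, at -0.06, in the deposited values. After repeated quantile normalization 16 members read lower and 10 higher, the median was -0.09, 4 members were wholly lower, and Rpn1 read 0.34 higher in replicates 4 to 6. The lowest of the 9 arrays was 0 h replicate 4 in 17 members (65.4%), against 56.8% of bright and 19.7% of all probe sets.

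Because the distributions differed between arrays, the test was also run after repeated quantile normalization, where the median difference of bright probe sets was 0.01 against all 6 arrays at 0 h and 0.00 against either set. Against all 6, 6 members then fell and 0 rose: Prosalpha2 and Prosbeta2 in the core, Rpn7 and Rpn12 in the lid, and Rpt4 and Rpn1 in the base. That was 23.1% of members, against 0.723% of all and 3.84% of bright probe sets called lower, with 1.1% and 3.21% called higher. Rpn12 fell 1.99-fold (adjusted p = 0.0019 in limma), Rpn1 1.68-fold (0.014), Rpn7 1.58-fold (0.010), Prosbeta2 1.54-fold (0.034), Prosalpha2 1.41-fold (0.031) and Rpt4 1.35-fold (0.041). Against replicates 1 to 3, 10 members fell (38.5%, against 4.31% of all and 14.8% of bright probe sets) and 2 rose (7.69%, against 4.78% and 15.5%). Against replicates 4 to 6, 7 fell (26.9%, against 8.33% of all and 16.7% of bright probe sets) and 1 rose (3.85%, against 10.1% and 17.8%). Over all probe sets, the calls against all 6 split into 33 lower and 141 higher as deposited, 101 lower and 153 higher after this step, and 20 lower and 140 higher with arrays centred on their medians.

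The subcomplexes were then compared within arrays, where a shift of a whole array cancels in part. For each array, each member's deviation from its own mean over the 9 arrays was averaged over a subcomplex. The core averaged 0.01 to 0.13 in the 5 h arrays, against 0.10 to 0.35 in 0 h replicates 1 to 3 and -0.63 to -0.10 in replicates 4 to 6. The lid averaged -0.15 to -0.00 at 5 h, against 0.10 to 0.42 and -0.52 to -0.04 in the same sets at 0 h. The base averaged -0.12 to 0.09 at 5 h, against 0.06 to 0.30 and -0.43 to 0.11. Bright probe sets averaged 0.06 to 0.19 at 5 h, against 0.05 to 0.20 and -0.45 to -0.10, so in every 5 h array all of these subcomplexes stood lower than bright probe sets, while in every array of 0 h replicates 1 to 3 they stood higher. In 0 h replicates 4 to 6, less bright probe sets, the core (-0.18 to 0.06) and lid (-0.07 to 0.13) fell on both sides, and the base stood higher (0.02 to 0.21). Alpha subunits alone, less bright probe sets, were at -0.02 to 0.07 at 5 h, on both sides.

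**Figure D4:**
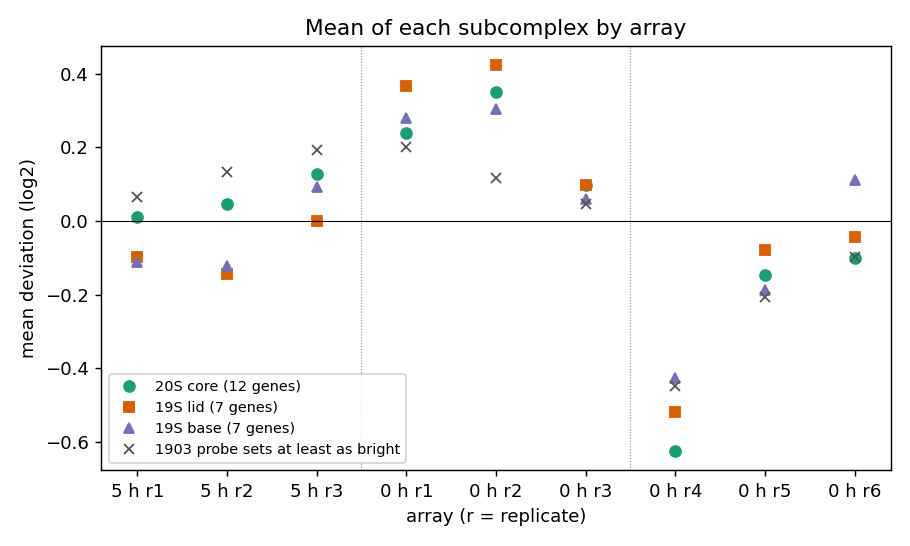
Mean deviation (log2) of the core, lid and base subunit genes and of 1903 probe sets at least as bright as the dimmest member, in each of the 9 arrays, 5 h first. In the 5 h arrays the lid lies below the core, and all symbols are lowest in 0 h replicate 4.

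The lid stood lower relative to the core at 5 h than at 0 h. The lid mean less the core mean was -0.19 to -0.11 in the 5 h arrays, against -0.00 to 0.13 in the 6 arrays at 0 h, with no overlap, and the same held after repeated quantile normalization (-0.20 to -0.12, against -0.01 to 0.12). Without Rpn12 the ages were barely apart, at -0.1197 to -0.0385, against -0.0304 to 0.1068 at 0 h. Leaving Prosalpha4 and Prosalpha7 out of the core made the ages overlap (-0.12 to -0.03, against -0.07 to 0.10). The base less the core was -0.17 to -0.04 at 5 h, against -0.05 to 0.21 at 0 h, and overlapped, but after repeated quantile normalization it did not (-0.18 to -0.05, against -0.04 to 0.23). Alpha subunits less beta subunits were 0.07 to 0.27 at 5 h, against -0.24 to 0.03 at 0 h, without overlap. After repeated quantile normalization the ages were barely apart in this gap (0.0539 to 0.2105, against -0.2754 to 0.0537). The alpha and beta gap was not computed without Prosalpha4 and Prosalpha7, both wholly above the 0 h arrays at 5 h. Of the other alpha subunits, Prosalpha2 (-0.33) and Prosalpha3 (-0.28) read lower against all 6 arrays at 0 h. Prosalpha5 (0.26) and Prosalpha6 (0.35) read higher, so the gap is not shown to hold over the outer ring as a whole. These gaps are descriptions of the arrays and carry no test, since the members were chosen with results known.

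**Figure D5:**
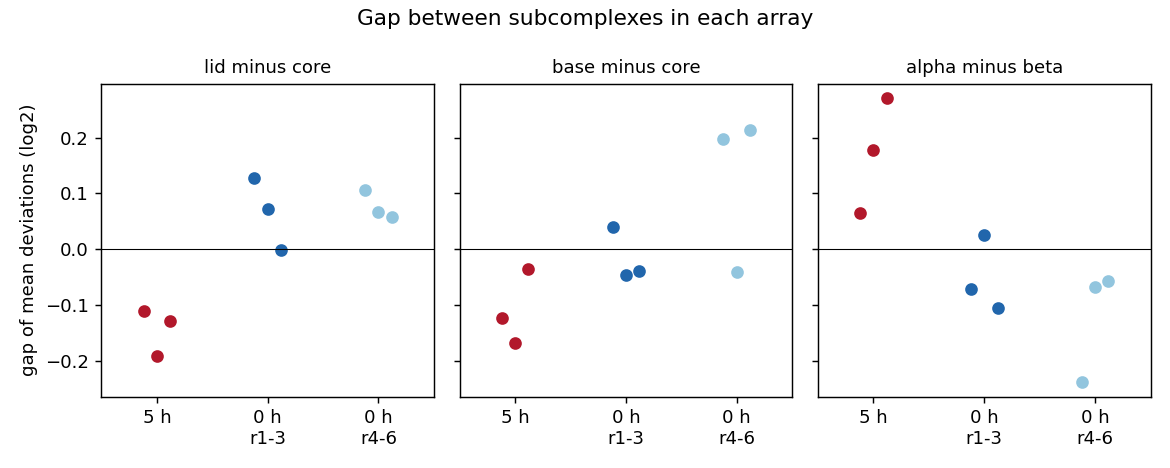
Gap between the mean deviations (log2) of lid and core, base and core, and alpha and beta subunit genes in each array, at 5 h, in 0 h replicates 1 to 3 and in 0 h replicates 4 to 6. The 5 h points lie below all 0 h points for lid minus core and above them for alpha minus beta, and they overlap for base minus core in these deposited values, though not after repeated quantile normalization.

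Members varied together among arrays of the same set in the deposited values. After subtracting each set's mean, the median Pearson r over 325 pairs of members across the 9 arrays was 0.59 (range -0.24 to 0.98), with 316 pairs above 0. It was 0.54 within the core, 0.62 within the lid and 0.55 within the base, and 0.62, 0.49 and 0.60 between core and lid, core and base, and lid and base, so the medians within and between subcomplexes covered similar ranges. Pairs of bright probe sets had a median of 0.32 and pairs of all probe sets 0.03. Rpt4 and Prosalpha4 had the highest median r with the other members, both 0.75, and Prosbeta6 the lowest, at 0.20. After repeated quantile normalization the median over members was 0.03 and over bright pairs 0.00, and without 0 h replicate 4 the members' median was 0.36. These points share arrays and scale, so the correlations carry no p.

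Genes around the proteasome were read from lists that the rule did not use. The counts of each list below are to be read beside the shares over all probe sets. Against replicates 1 to 3, 3.74% of all probe sets were called lower and 4.37% higher (12.7% and 13.6% of bright ones). Against replicates 4 to 6, 9.5% were called lower and 12.5% higher (3.73% and 37.9% of bright ones). Of 16 measured genes for activators, assembly factors and regulators, none passed in limma against all arrays at 0 h (2 at an unadjusted p under 0.05, of which 1 was higher), 3 fell against replicates 1 to 3 and 3 rose against replicates 4 to 6, with medians of 0.01, -0.13 and 0.19. Sem1, a small lid subunit outside the naming rule, read 10.48, 10.43 and 10.12 at 5 h, against 11.40, 11.81 and 11.40 in 0 h replicates 1 to 3 and 10.30, 11.32 and 10.92 in replicates 4 to 6. Its difference was -0.85 (adjusted p = 0.16 in limma), and it fell against replicates 1 to 3 (-1.19, adjusted p = 0.0011) but not past the threshold against replicates 4 to 6 (-0.50, adjusted p = 0.13). REG, the nuclear activator cap of the core, read 7.26, 7.72 and 7.84 at 5 h, against 7.30, 6.98 and 7.05 in 0 h replicates 1 to 3 and 6.13, 6.89 and 6.62 in replicates 4 to 6 (0.78, adjusted p = 0.12 in limma). It rose past the threshold against replicates 4 to 6 (1.06, adjusted p = 0.0074). Pomp, which matures the core and was chosen after its values were seen, differed by -0.15 against replicates 1 to 3 and rose against replicates 4 to 6 (1.53, adjusted p = 0.00074 in limma). For maf-S, the partner of the transcription factor cnc that drives proteasome genes under stress, the difference was -0.43 (adjusted p = 0.40 in limma). It fell against replicates 1 to 3 (-0.78, adjusted p = 0.013 in limma) and read -0.08 against replicates 4 to 6 (adjusted p = 0.69). The signal of cnc was near background at 3.67 at 5 h and 3.85 at 0 h. Both maf-S and cnc were also chosen after their values were seen.

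Of 16 genes that supply or deliver ubiquitin, none passed in limma against all arrays at 0 h (3 at an unadjusted p under 0.05, all higher), 2 fell against replicates 1 to 3 and 5 rose against replicates 4 to 6, with medians of -0.04, -0.08 and 0.14. Rad23, a shuttle that brings ubiquitinated proteins to the proteasome, differed by 0.995 (adjusted p = 0.18 in limma), and Cul1, a scaffold of ubiquitin ligases, by 0.83 (adjusted p = 0.22). The 2 that fell against replicates 1 to 3 were RpL40 (-0.60, adjusted p = 0.0066 in limma) and RpS27A (-0.56, adjusted p = 0.0032), which encode ubiquitin fused to ribosomal proteins, named after their values were seen.

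The COP9 signalosome and eIF3 share subunit folds with the lid, and their counts also differed with the 0 h set. Of 9 genes of the COP9 signalosome none passed in limma against all arrays at 0 h (1 higher at an unadjusted p under 0.05), 1 fell against replicates 1 to 3, and against replicates 4 to 6 3 rose and 1 (CSN1a) was called lower from a probe set below background in every array, with medians of 0.14, -0.09 and 0.47; the largest differences against all arrays were alien at 0.60 (adjusted p = 0.36 in limma) and CSN8 at 0.46 (adjusted p = 0.49). Of 16 eIF3 genes, for the translation initiation factor, none passed (3 higher and 1 lower at an unadjusted p under 0.05), 2 rose and 1 fell against replicates 1 to 3, and 5 rose and 1 fell against replicates 4 to 6, with medians of 0.25, 0.08 and 0.26. The largest differences were eIF3e at 0.78 and eIF3i at 0.63 (adjusted p = 0.13 in limma for both). Of 8 genes of the TCP-1 ring chaperonin, a folding machine unrelated to the proteasome, none passed (2 higher at an unadjusted p under 0.05), 1 rose and 1 fell against replicates 1 to 3, and 2 rose against replicates 4 to 6, with medians of 0.24, 0.09 and 0.30; CCT3 differed by 0.58 and CCT2 by 0.49 (adjusted p = 0.20 and 0.46 in limma). Of 12 testis paralogs of the subunits, 9 were at or below background, none passed in limma against all arrays at 0 h (1 lower at an unadjusted p under 0.05) or against replicates 1 to 3, and 2 fell against replicates 4 to 6, with medians of -0.07, 0.03 and -0.21. Prosbeta4R2 (-0.41, adjusted p = 0.29 in limma) and Prosalpha4T2 (-0.19, adjusted p = 0.57) differed most; Prosbeta4R2, also one of the 2 that fell, was below background in every array, so both ages have only a bound.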

How the data were processed

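Gene expression was measured on single Affymetrix arrays. Per the submitters' processing notes, the authors used RMA and Affymetrix Expression Console, and the table they deposited holds log2 values; versions, and which arrays were processed together, are not given in the sources used here. The deposited log2 values were used without further normalization or filter. After leaving out 44 control probe sets of 14010, 13966 were tested by two-sided moderated tests (limma 3.58.1, R 4.3.3), and p-values were adjusted by Benjamini-Hochberg over the whole table, with a threshold of 0.05. Only the arrays compared entered each fit. Arrays have no counting depth, and their number limits the precision. The lowest SD of the difference between any pair of arrays was 0.17, so none were duplicates. The steps were tested on simulated data.

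Gene names came from the platform annotation, credited only to probe sets with 1 symbol; RefSeq identifiers changed 0 member symbols. No member pair was adjacent among protein-coding genes. No genome build is named by the files, so no coordinates are given, and no sequences were used here. Members and lists were chosen with earlier results of these data known. All members are named. Values in every array are given for members past the threshold, catalytic subunits, ubiquitin receptors and the largest rise and fall in core, lid and base; from each list, members past the threshold or the 2 largest differences are named.

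Alternatives were repeated quantile normalization, median centring, averaged probe sets per gene, a filter on dim probe sets, each array left out, replicate blocks, the array with conflicting labels counted at either age, 3′ bias as a covariate, array weights, a trended and robust prior, a threshold of 0.01, an exact permutation test and 1 spread shared by 3 sets. The bright probe sets, the overlap of the 0 h sets and the gaps between subcomplexes were added after seeing the data.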

Additional observations from a re-analysis of the deposited data

Results flagged for a closer look

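In 0 h replicate 4, 4 subunit genes lay far below the other 5 arrays at 0 h, by a gap over 0.625 of the whole range of the 6 arrays. Prosalpha7 read 6.44, where the others were between 7.07 and 7.38. Rpn3 read 8.05, where the others were between 8.71 and 8.996. Rpn8 read 5.64, where the others were between 6.40 and 6.83. Rpt2 read 6.95, where the others were between 7.85 and 8.27. These 4 were among 29 groups of 6 values examined, and chance gives such a gap in about 1 of 20. All 4 came from the array that was lowest in 17 of 26 members. Without that array, 2 members fell and 1 rose against the other arrays at 0 h, where 54 of all 13966 probe sets fell and 176 rose.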

How the results depend on the processing

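Against all 6 arrays at 0 h, the 2 falls became 6 after repeated quantile normalization, with the replicate block and with array weights, and 0 with median centring, the array with conflicting labels counted as 0 h, 3′ bias as a covariate, a trended and robust prior, a threshold of 0.01, and the exact permutation test, whose smallest p over 84 splits of the arrays is 0.012. The 0 rises became 1 with the replicate block, 1 with the conflicting array counted as 5 h, and 2 with array weights. Over all 13966 probe sets, calls went from 33 lower and 141 higher to 350 and 393 with the replicate block. They were 57 and 295 with the conflicting array counted as 5 h, and 703 and 1106 with array weights. With that array counted as 0 h, 0 probe sets were called, as with the 3′ bias covariate and the permutation test. These 0 counts therefore say nothing particular to members. Leaving out 1 array gave 0 to 2 falls and 0 to 1 rises, and over all probe sets 5 to 54 calls lower and 14 to 347 higher. The median difference of 0.02 became -0.39 with the 3′ bias covariate. Against replicates 1 to 3, the 9 falls became 5 and the 1 rise 0 with 1 spread shared by 3 sets. Over all probe sets that fit called 311 lower and 226 higher, in place of 522 and 610. The rise of Prosalpha7 was also lost where probe sets of a gene were averaged (0), and repeated quantile normalization gave 2 rises. Leaving out 1 array gave 4 to 10 falls and 1 to 2 rises, and over all probe sets 297 to 558 calls lower and 339 to 657 higher. Against replicates 4 to 6, repeated quantile normalization gave 7 falls in place of 2 and 1 rise in place of 8, and turned the median from 0.20 to -0.11, and averaging the probe sets of a gene gave 5 rises. Leaving out 1 array gave 0 to 3 falls and 1 to 10 rises, and over all probe sets 142 to 1616 calls lower and 901 to 1817 higher. The same normalization took the coexpression of members from 0.591 to 0.0293 and the members wholly lower in 0 h replicates 4 to 6 from 13 to 4. The causes were not tested.

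Adjusted p over the alternatives ran from 0.00032 to 0.9997 for Rpn12, which stayed past the threshold in 9 of 20, and from 0.00073 to 0.9997 for Rpn1, in 8 of 20. The replicate numbers that the ages share did not pair the arrays: same-numbered arrays had deviations that correlated at -0.33, -0.13 and -0.23. The block leaves replicates 1 to 3 as the only pairs. Over all probe sets, calls against replicates 4 to 6 split into 1327 lower and 1750 higher as deposited and 611 lower and 2075 higher with median centring.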

Other observations

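The array with conflicting labels, titled 5 h and described as 0 h, lay within the range of the 6 arrays at 0 h in 21 of 26 subunit genes. It lay within the range of the 3 arrays at 5 h in 10, above it in 10 and below it in 6. The 0 h range takes in more arrays and both 0 h sets, so these counts do not place the array at either age. Its mean deviation was 0.10 in the core, -0.02 in the lid and 0.08 in the base. It read 8.09 for Rpn12 and 7.58 for Rpn1, above all 5 h arrays and below all 0 h arrays for both genes. For Prosalpha4 and Prosalpha7 it read 8.0898 and 7.771, above all 0 h arrays (highest 8.0844 and 7.3752). Both values were below all 5 h arrays (lowest 8.209 and 7.7781). The remaining member outside the 0 h range was Rpt2, at 8.29, above the arrays of both ages. The titles of the 5 h arrays number the replicates otherwise than their descriptions, which were followed here.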
